A study of Mus musculus with 8 samples.

Results

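The genes that make, regulate and export cholesterol and that make fatty acids were followed in haematopoietic stem and progenitor cells. The list held 35 genes by symbol, of which 33 were measured among 18193 genes on the array. Acat2 and Nr1h2 had no probe set named for them alone and are not analysed here. The measured genes comprised 14 enzymes of the sterol pathway, 9 genes of sterol control and efflux and 10 genes of fatty acid synthesis. The cells were lineage-low, Sca1-positive, cKit-high (LSK) cells sorted from C57BL/6 mice by flow cytometry. The groups were 4 arrays from mice heterozygous for Jak2V617F and 4 arrays from wild type mice, with no treatment named in the labels. Jak2 is a tyrosine kinase that relays signals from cytokine receptors, and the V617F change, which leaves it active without a ligand, is common in human myeloproliferative neoplasms. The sources used here give neither the age and sex of the mice nor how the allele was induced.

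Cholesterol is built from acetyl-CoA through mevalonate, the isoprenoid farnesyl diphosphate, squalene and lanosterol. The transcription factors encoded by Srebf1 and Srebf2 are held in the endoplasmic reticulum by the Insig proteins and, when sterol is scarce, are escorted by Scap to the Golgi, cut free and sent to the nucleus, where they switch on the enzymes of both sterol and fatty acid synthesis. The liver X receptors, Nr1h2 and Nr1h3, sense oxidised sterols and switch on the exporters Abca1 and Abcg1, and Abca1 and Abcg1 are known to restrain the growth of haematopoietic stem and progenitor cells in mice.

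None of the 33 genes passed the threshold in the comparison of Jak2V617F with wild type cells (limma, Benjamini-Hochberg adjusted over all genes), a threshold that 0.165% of all genes passed (0.104% higher and 0.0605% lower). Unadjusted limma p-values under 0.05 were found for 5 of the 33. Mvk, the mevalonate kinase gene, lay higher in Jak2V617F cells, and the desaturase genes Scd1, Scd2 and Fads2 and the regulator gene Srebf2 lay lower. Thus 1 of 33 lay higher with such a p, against 11.9% of all genes, and 4 of 33 lay lower, against 5.23%. These counts turned with the arrays used. In arrays with Y-linked expression alone they were 7 higher (21.2%, against 11.4% of all genes) and 1 lower (3.03%, against 6.06%). Without Jak2V617F replicate 3 they were 5 higher (15.2%, against 11.1%) and 2 lower (6.06%, against 5.32%), and with each gene's probe sets averaged 2 higher (6.06%, against 11.7%) and 2 lower (6.06%, against 5.39%). The 2 lower genes with averaging were Stard4 and Fads1, neither of them among the 4 lower in the main fit. The arrays of the 2 groups did not overlap for 3 of the 33 genes, Mvk, Scd2 and Fads2, and for 10.1% of all genes. Changes are Jak2V617F minus wild type in log2 intensity. They lay above 0 for 16 and below 0 for 17 of the 33, with a median of -0.0067, against a median of 0.05 and a share above 0 of 62.6% over all genes. These shares differ among bright genes. With genes of a mean under 7.11 (dim genes) left out, 32 of the 33 genes and 10968 of all genes remained. Of the 10968, 5917 lay above 0 and 5051 below, with a median of 0.015. In that fit 2 of the 32 lay higher (6.25%, against 10.1%) and 4 lower (12.5%, against 7.87%) with an unadjusted limma p under 0.05. In a sorted population, a change in the cells that make up the sort and a change of RNA per cell cannot be told apart.

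**Figure D1:**
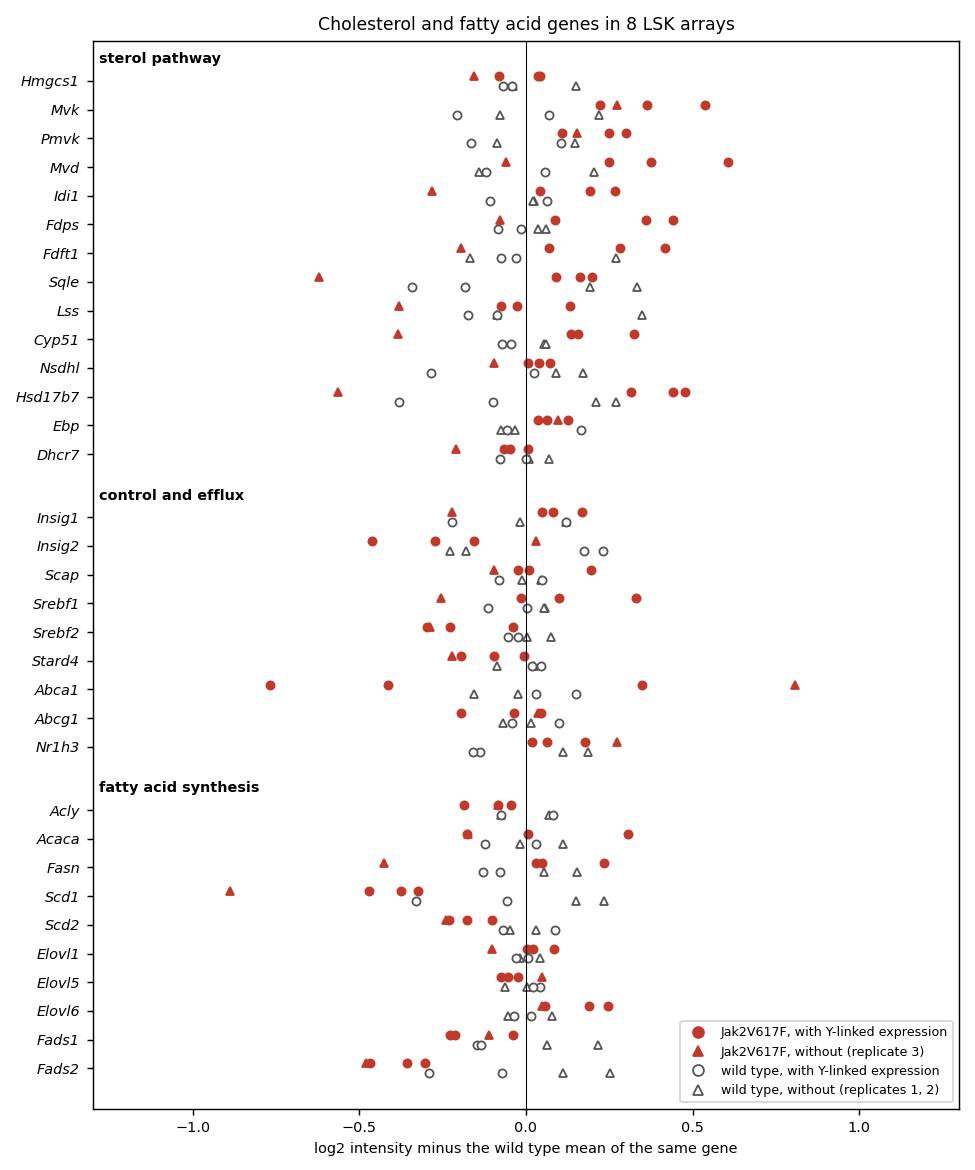
Log2 intensity of each of the 33 genes in each array, with the wild type mean of the gene set to 0. Red symbols are the 4 Jak2V617F arrays and open grey symbols the 4 wild type arrays, and triangles mark arrays without Y-linked expression. The Jak2V617F symbols of Mvk lie right of the wild type symbols and those of Fads2 and Scd2 lie left of them, while the red triangle (replicate 3) lies farthest left for 8 of 14 sterol enzymes.

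Some facts of the arrays touch these results. The arrays had median log2 intensities of 7.06 to 7.15. The surface marker genes of the sorted cells were bright, with means of 12.67 in Jak2V617F arrays and 12.65 in wild type arrays for Kit, and of 13.93 and 14.04 for Cd34 in the same order. Ly6a, which encodes Sca1, was not analysed here. Y-linked transcripts were present in 3 of 4 Jak2V617F arrays (replicates 1, 2 and 4) and in 2 of 4 wild type arrays (replicates 3 and 4), and Xist was bright in the others. Absent transcript read up to 6.54, the highest value of Xist in an array with Y-linked expression, so values near it are taken as near background. Macrophage and dendritic cell markers lay above 0 in 12 of 12 genes (median 0.54), erythroid markers in 6 of 6 (0.59), granulocyte markers in 6 of 7 (0.43), megakaryocyte markers in 5 of 5 (0.35) and mitosis genes in 6 of 7 (0.23). Some of these were near background on average over the 8 arrays. They were the erythroid markers Alas2 (6.30) and Epb42 (6.23) and the macrophage markers Adgre1 (6.61) and C1qa (6.60). The macrophage and dendritic cell mean ranged from 10.11 to 10.68 in Jak2V617F arrays and from 9.48 to 10.13 in wild type arrays. Mitosis means ranged from 12.12 to 12.61 and from 12.16 to 12.37, again in that order. The 4 B cell markers had a median change of -0.0068, the 4 T cell markers 0.23 and the 5 adipocyte and stromal markers 0.05, and most of these were near background. Members of a list went both ways. Of the T cell markers 3 lay above 0, but Cd4 (mean 8.56) changed by -0.45. Of the stromal list 3 lay above 0 and 2 below, among them Cxcl12 (-1.01, near background). All Jak2V617F arrays lay below all wild type arrays for Cd4 and Cxcl12, and above them for Cd8a (0.25, near background). No marker was called over all genes (limma), and their part in the results below was not tested.

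Promoter windows from RefSeq (GRCm38.p6, 250 bases before to 50 bases after a gene's start) were found for 25 of the 33 genes. They are shown for enzymes whose values are followed below, since sterol enzymes are textbook targets of the sterol-regulated factors together with the CCAAT-binding factor NF-Y. The Mvk window lies at chr5:114444019-114444318, plus strand. The Mvd window lies at chr8:122443373-122443672, minus strand. The Hsd17b7 window lies at chr1:169969156-169969455, minus strand. The Hmgcs1 window lies at chr13:119690101-119690400, plus strand. The Cyp51 window lies at chr5:4104648-4104947, minus strand. The Fads2 window lies at chr19:10101454-10101753, minus strand. Capitals mark the CCAAT box (CCAAT, or ATTGG on the other strand), the E-box (CACGTG) and the core of the sterol regulatory element (TCACNCCAC), each searched on both strands.
Mvk: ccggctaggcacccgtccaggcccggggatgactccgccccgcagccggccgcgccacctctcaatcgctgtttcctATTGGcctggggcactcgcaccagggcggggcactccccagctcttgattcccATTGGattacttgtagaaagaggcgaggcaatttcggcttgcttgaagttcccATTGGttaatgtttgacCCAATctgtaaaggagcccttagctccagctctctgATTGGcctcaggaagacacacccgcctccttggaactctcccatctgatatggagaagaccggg
Mvd: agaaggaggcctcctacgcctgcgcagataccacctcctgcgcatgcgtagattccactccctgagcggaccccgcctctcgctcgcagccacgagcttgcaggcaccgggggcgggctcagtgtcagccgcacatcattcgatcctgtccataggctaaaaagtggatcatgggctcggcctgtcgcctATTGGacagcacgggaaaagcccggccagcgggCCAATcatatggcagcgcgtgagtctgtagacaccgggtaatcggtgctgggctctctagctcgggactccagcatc
Hsd17b7: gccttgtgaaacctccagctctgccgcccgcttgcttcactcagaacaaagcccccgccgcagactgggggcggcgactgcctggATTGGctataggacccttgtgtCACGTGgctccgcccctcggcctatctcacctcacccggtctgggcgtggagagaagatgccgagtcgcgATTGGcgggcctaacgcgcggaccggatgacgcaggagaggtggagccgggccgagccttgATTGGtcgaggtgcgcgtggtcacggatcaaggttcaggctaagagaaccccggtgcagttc
Hmgcs1: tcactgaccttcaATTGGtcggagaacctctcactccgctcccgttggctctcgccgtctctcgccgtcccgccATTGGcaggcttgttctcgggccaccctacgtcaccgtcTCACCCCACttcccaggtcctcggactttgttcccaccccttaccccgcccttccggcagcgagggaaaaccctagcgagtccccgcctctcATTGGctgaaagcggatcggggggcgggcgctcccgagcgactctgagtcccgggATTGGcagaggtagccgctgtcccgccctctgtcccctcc
Cyp51: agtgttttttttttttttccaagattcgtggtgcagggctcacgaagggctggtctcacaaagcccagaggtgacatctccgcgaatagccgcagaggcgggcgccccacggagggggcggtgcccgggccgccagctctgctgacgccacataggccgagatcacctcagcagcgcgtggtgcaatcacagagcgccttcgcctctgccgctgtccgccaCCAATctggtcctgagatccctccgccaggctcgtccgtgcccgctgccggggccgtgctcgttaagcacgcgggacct
Fads2: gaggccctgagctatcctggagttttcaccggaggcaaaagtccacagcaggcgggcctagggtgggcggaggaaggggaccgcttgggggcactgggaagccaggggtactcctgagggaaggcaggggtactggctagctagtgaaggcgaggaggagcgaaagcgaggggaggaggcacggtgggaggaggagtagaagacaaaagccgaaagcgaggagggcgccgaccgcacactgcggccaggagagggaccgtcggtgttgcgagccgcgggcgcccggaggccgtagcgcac
A CCAAT box was present in 11 of 11 sterol enzyme genes with a window (100%), in 4 of 7 control and efflux genes and in 4 of 7 fatty acid genes (57.1% each), against 41.1% of all 27025 genes with a window. Mvk held 5 and Hmgcs1 4. The sterol regulatory element core was found in 1 of the 25 genes, Hmgcs1, against 1.44% of all genes, and the E-box in 6 of the 25 (24%), against 8.09%. No motif was found in the Fads2 window. A match is a run of letters and not a shown binding site, and a gene with several windows had more chances of a match.

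The early sterol pathway, which turns acetyl units into farnesyl diphosphate, held the enzymes that lay highest in Jak2V617F cells. Mvk, which adds the first phosphate to mevalonate, read 9.94, 9.79, 9.85 and 10.11 in the Jak2V617F arrays, against 9.79, 9.49, 9.37 and 9.64 in the wild type arrays. All Jak2V617F arrays lay above all wild type arrays, the closest pair by 0.0016, and 6.82% of all genes were separated in this direction. The change was 0.35 ± 0.11 (SE), or 1.27-fold, with a limma adjusted p of 0.194, so it was not called. A further Mvk probe set differed by 0.23.

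Pmvk, the next kinase of the pathway, read 11.06, 11.20, 11.10 and 11.25 in the Jak2V617F arrays, against 11.10, 10.86, 10.78 and 11.05 in the wild type arrays, a change of 0.20 ± 0.09 (SE; limma adjusted p = 0.294). Mvd, which makes isopentenyl diphosphate, read 9.51, 9.63, 9.20 and 9.86, against 9.46, 9.12, 9.14 and 9.31 in wild type arrays. The change was 0.29 ± 0.14 (SE; limma adjusted p = 0.328), and Jak2V617F replicate 3 lay among the wild type values. A further Mvd probe set differed by 0.26.

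Fdps, which joins these units into farnesyl diphosphate, averaged 11.68 ± 0.24 in Jak2V617F arrays and 11.48 ± 0.06 in wild type arrays (SD, n = 4 each), with a change of 0.20 ± 0.12 (SE; limma adjusted p = 0.393). Replicate 3 was again the lowest Jak2V617F array, at 11.40. Hmgcs1, the synthase that commits acetyl units to the pathway, read 13.99, 14.11, 13.92 and 14.12 in Jak2V617F arrays, against 14.22, 14.03, 14.00 and 14.03 in wild type arrays, so the groups overlapped (-0.04 ± 0.08, SE; limma adjusted p = 0.819). Idi1, the isomerase of the C5 units, differed by 0.06 ± 0.12 (SE).

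The later enzymes, from squalene to cholesterol, did not separate the genotypes. Sqle, the squalene epoxidase gene and a rate-limiting step, read 11.02, 10.91, 10.20 and 10.98 in Jak2V617F arrays, against 11.15, 11.01, 10.64 and 10.48 in wild type arrays, a change of -0.04 ± 0.21 (SE; limma adjusted p = 0.933). Jak2V617F replicate 3 was the lowest of the 8 arrays. Hsd17b7, a reductase acting on sterol intermediates, read 10.11, 9.95, 9.07 and 10.07 in Jak2V617F arrays, against 9.90, 9.84, 9.53 and 9.25 in wild type arrays, a change of 0.17 ± 0.24 (SE; limma adjusted p = 0.736). Its lowest array was the same one, and the SD over the Jak2V617F arrays was 0.49. A further, dimmer Hsd17b7 probe set differed by 0.06, and others below the background level by -0.10 and 0.15.

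The other 6 later enzymes (Fdft1, Lss, Cyp51, Nsdhl, Ebp and Dhcr7) had changes from -0.09 to 0.14 and limma adjusted p-values from 0.579 to 0.983. Fdft1, squalene synthase, differed by 0.14 ± 0.14 (SE). Cyp51, lanosterol demethylase, differed by 0.06 ± 0.14 (SE), with other probe sets at 0.03 and -0.41. Lss, lanosterol synthase, differed by -0.09 ± 0.14 (SE). Dhcr7, the last reductase, differed by -0.08 ± 0.07 (SE) and Ebp, a sterol isomerase, by 0.08 ± 0.07 (SE). Nsdhl, which helps strip methyl groups from the sterol, differed by 0.0052 ± 0.10 (SE). Over the 14 sterol enzymes 10 changes lay above 0 and 4 below, with a median of 0.07, near the 0.05 of all genes. The median over all genes was 0.015 with dim genes left out.

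**Figure D2:**
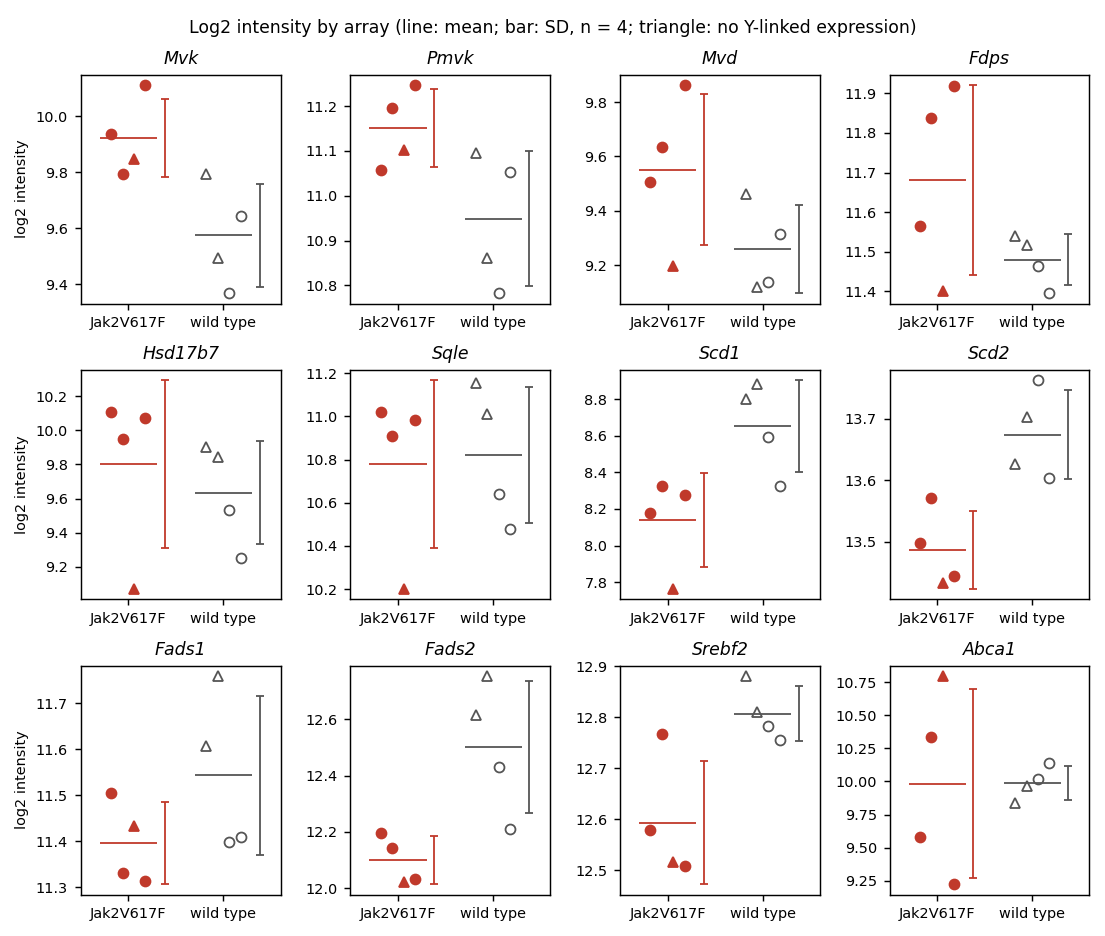
Log2 intensity by array for 12 genes, Jak2V617F left and wild type right in each panel, with the mean as a line and the SD (n = 4) as a bar; triangles are arrays without Y-linked expression. The 2 groups are apart for Mvk, Scd2 and Fads2, and the Jak2V617F triangle (replicate 3) is the lowest point for Hsd17b7, Sqle and Scd1 and the highest for Abca1. Vertical axes differ between panels and do not start at 0.

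Jak2V617F replicate 3 was the lowest of the 8 arrays for 17 of the 33 genes, against 9.53% of all genes. These were 8 of 14 sterol enzymes, 5 of 10 fatty acid genes and 4 of 9 control and efflux genes. The mean over the 14 enzymes was 11.24, 11.25, 10.92 and 11.36 in the Jak2V617F arrays, against 11.25, 11.10, 11.02 and 11.01 in the wild type arrays. Without replicate 3, 13 of 14 enzymes lay above 0, as did 11196 of all 18193 genes, with medians of 0.19 and 0.05. In that fit 5 (Mvk, Mvd, Fdps, Cyp51 and Hsd17b7) lay higher with an unadjusted limma p under 0.05, a property of 11.1% of all genes. None of the 14 lay lower with such a p, against 5.32% of all genes. Replicate 3 was singled out as the lowest array for many of these same genes, so leaving it out raises their changes in part by that choice. Without wild type replicate 1, 13 of 14 also lay above 0 (median 0.07). In that fit 3 lay higher with such a p, against 11.6% of all genes. None was called after adjustment in either fit.

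Replicate 3 was also the only Jak2V617F array without Y-linked expression, so sex and this array cannot be told apart among the mutant mice. In arrays with Y-linked expression alone (3 against 2), the changes of all 14 sterol enzymes lay above 0 (median 0.26). So did those of 11133 of all 18193 genes (median 0.06). In that fit 7 of 14 had an unadjusted limma p under 0.05 and lay higher, a property of 11.4% of all genes, and none of the 14 lay lower with such a p, against 6.06% of all genes. These were Hsd17b7 (0.65), Mvk (0.44), Mvd (0.44), Sqle (0.41), Fdps (0.34), Fdft1 (0.31) and Cyp51 (0.26), with limma adjusted p-values from 0.131 to 0.285. This fit also leaves out replicate 3, the mutant array with the lowest enzyme mean. It further leaves out wild type replicates 1 and 2, which had the highest wild type means (11.25 and 11.10). The choice of arrays thus raises these changes in part. Enzymes of 1 pathway read on the same 5 arrays are not independent observations. In the arrays without Y-linked expression, the single Jak2V617F array lay below both wild type arrays for 10 of 14 sterol enzymes and 8 of 10 fatty acid genes, and for 28.8% of all genes. The mean over the enzymes was 11.28 in Jak2V617F arrays and 11.02 in wild type arrays with Y-linked expression, and 10.92 and 11.18, in the same order, without it. The mean over the fatty acid genes differed by -0.03 with Y-linked expression and by -0.31 without it. Marker means moved with the same split. The difference with and without Y-linked expression was 0.09 and 0.43 for mitosis genes, 0.50 and 0.88 for macrophage and dendritic cell markers and 0.60 and 0.17 for granulocyte markers. Replicate 3 had the highest mean of the 8 arrays for mitosis genes and for macrophage and dendritic cell markers and the lowest of the mutant arrays for granulocyte markers, and their part in the sterol values was not tested.

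A limma fit with genotype, sex and their interaction, added after these values were seen, compared the changes in the 2 kinds of array. The interaction lay above 0 (larger change with Y-linked expression) for 13 of 14 sterol enzymes and for 9006 of all 18193 genes, with medians of 0.48 and -0.0033. Sqle had a change of 0.41 with and -0.88 without Y-linked expression (limma adjusted p = 0.0783 for the interaction). Hsd17b7 had changes of 0.65 and -0.80 (limma adjusted p = 0.0846). None of the 33 genes passed the adjusted threshold for the interaction, which 0.0495% of all genes passed. An unadjusted limma p under 0.05 above 0 was found for 5 of 14 sterol enzymes, against 5.73% of all genes. With 1 mutant array on the side without Y-linked expression, this fit assumes that the lone array varies like the other groups.

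**Figure D3:**
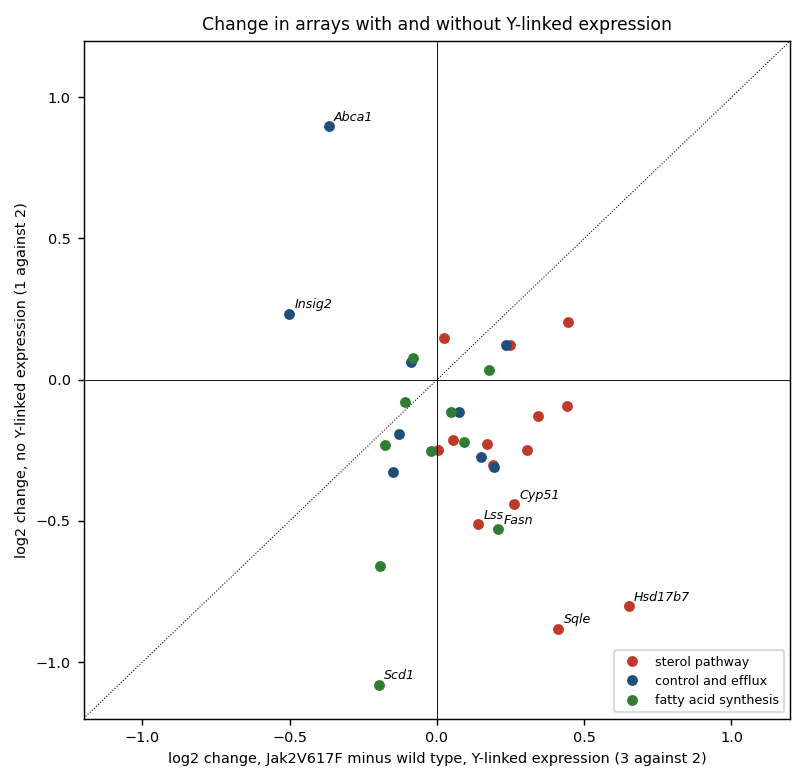
Change of each of the 33 genes in log2 intensity, Jak2V617F minus wild type, in arrays with Y-linked expression (horizontal, 3 against 2 arrays) and without it (vertical, 1 against 2 arrays); the dotted line marks equal changes. Sterol enzymes (red) lie right of 0 and mostly below it, Sqle at 0.41 and -0.88, while Abca1 (blue) lies at -0.37 and 0.90. Genes with an interaction above 0.6 in size are named.

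Among the regulators, Srebf2, the factor that mainly drives sterol synthesis, read 12.58, 12.77, 12.52 and 12.51 in Jak2V617F arrays, against 12.88, 12.81, 12.78 and 12.75 in wild type arrays. Replicate 2 overlapped the wild type values and the other mutant arrays lay below them. The change was -0.21 ± 0.08 (SE; limma adjusted p = 0.229), and a further probe set differed by -0.06. Srebf1, whose products drive fatty acid synthesis more, read 11.92, 11.69, 11.33 and 11.57 in Jak2V617F arrays, against 11.64, 11.64, 11.47 and 11.59 in wild type arrays (0.04 ± 0.12, SE; limma adjusted p = 0.879). Its values were spread more widely among the mutant arrays, with SDs of 0.24 in Jak2V617F and 0.08 in wild type arrays.

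Scap, the escort of both factors, read 12.03, 11.81, 11.74 and 11.84 in Jak2V617F arrays, against 11.88, 11.82, 11.75 and 11.88 in wild type arrays, and differed by 0.02 ± 0.08 (SE). Insig1, a retention factor and itself a target of the pathway, read 13.19, 13.28, 12.88 and 13.16, against 13.23, 13.09, 13.23 and 12.89 in wild type arrays (0.02 ± 0.11, SE). Both groups of arrays overlapped for these genes.

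Insig2, the other retention factor, read 9.58, 9.77, 10.07 and 9.89 in Jak2V617F arrays, against 9.86, 9.82, 10.27 and 10.22 in wild type arrays. The change was -0.22 ± 0.14 (SE; limma adjusted p = 0.441), with further probe sets at -0.13 and -0.24. In arrays with Y-linked expression it was -0.50 (limma adjusted p = 0.169) and without it 0.23, so the single mutant array without Y-linked expression lay on the other side.

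Stard4, a cytosolic carrier of cholesterol, read 12.45, 12.36, 12.23 and 12.26 in Jak2V617F arrays, against 12.48, 12.37, 12.47 and 12.50 in wild type arrays, a change of -0.13 ± 0.07 (SE; limma adjusted p = 0.386). Its other probe sets differed more, by -0.37 and -0.39 (unadjusted limma p of 0.0045 and 0.017), with overlapping arrays. They were dimmer than the chosen one, with means of 11.58 and 9.84, but above background. With probe sets averaged the change was -0.30 (limma adjusted p = 0.126).

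Of the exporters, Abca1, which loads cholesterol onto apolipoprotein A-I, read 9.58, 10.34, 10.80 and 9.22 in Jak2V617F arrays, against 9.83, 9.97, 10.02 and 10.14 in wild type arrays. The means were 9.98 ± 0.71 in Jak2V617F and 9.99 ± 0.13 in wild type arrays (SD, n = 4 each), so the mutant arrays spread on both sides of the wild type arrays with no shift of the mean (limma adjusted p = 0.992). The array highest for Abca1, replicate 3, was lowest for Sqle and Hsd17b7. The macrophage and dendritic cell marker mean was 10.11, 10.53, 10.68 and 10.29 in the same 4 mutant arrays. In the wild type arrays this mean was 9.82, 9.78, 10.13 and 9.48. Wild type replicate 4 thus had the lowest marker mean and the highest Abca1 value of its group. The part of these markers in the Abca1 values was not tested.

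Abcg1, which passes cholesterol to lipoproteins, read 12.91, 12.99, 12.98 and 12.75 in Jak2V617F arrays, against 12.88, 12.96, 13.04 and 12.91 in wild type arrays (-0.04 ± 0.08, SE; limma adjusted p = 0.823), and a further, dimmer probe set differed by 0.20. Nr1h3, a liver X receptor, read 6.56, 6.52, 6.77 and 6.68 in Jak2V617F arrays, against 6.69, 6.61, 6.36 and 6.34 in wild type arrays, values near background (0.13 ± 0.10, SE; limma adjusted p = 0.515). Over the 9 control and efflux genes the median change was -0.0067, with 4 above 0 and 5 below.

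The desaturases put double bonds into fatty acids. Their changes lay below 0 in 4 of 4 genes, against 37.4% of all genes (5051 of 10968 with dim genes left out). The desaturases were singled out of the fatty acid genes after their values were seen, and Fads1 had an unadjusted limma p of 0.164. Fads2, the delta-6 desaturase of polyunsaturated fatty acids, read 12.20, 12.14, 12.02 and 12.03 in Jak2V617F arrays, against 12.61, 12.75, 12.43 and 12.21 in wild type arrays. The groups did not overlap, the closest pair being 0.012 apart, and 3.33% of all genes were separated in this direction. The change was -0.40 ± 0.12 (SE), or 1.32-fold lower, with a limma adjusted p of 0.176, the smallest of the 33 genes, and further probe sets differed by -0.16 and -0.03.

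Scd1, a stearoyl-CoA desaturase that makes oleate, read 8.18, 8.33, 7.76 and 8.28 in Jak2V617F arrays, against 8.80, 8.88, 8.59 and 8.32 in wild type arrays. Only wild type replicate 4 overlapped the mutant values. The change was the largest of the 33 genes, -0.51 ± 0.16 (SE) or 1.43-fold lower, with a limma adjusted p of 0.188. A second Scd1 probe set was near background.

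Scd2, a related stearoyl-CoA desaturase, read 13.50, 13.57, 13.43 and 13.44 in Jak2V617F arrays, against 13.63, 13.70, 13.76 and 13.60 in wild type arrays. The groups did not overlap, and the change was -0.19 ± 0.07 (SE; limma adjusted p = 0.23). Further Scd2 probe sets differed by -0.24 and -0.23. Fads1, the delta-5 desaturase, averaged 11.40 ± 0.09 in Jak2V617F and 11.54 ± 0.17 in wild type arrays (SD, n = 4 each), a change of -0.15 ± 0.10 (SE; limma adjusted p = 0.447), and a dimmer probe set differed by -0.31.

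Part of the distance in the desaturases came with the arrays without Y-linked expression. The wild type arrays of this kind were the highest of the 8 for Scd1, Fads1 and Fads2. The only mutant array of this kind, replicate 3, was the lowest of the 8 for Scd1, Scd2 and Fads2. In arrays with Y-linked expression alone the changes were -0.20 for Scd1, -0.19 for Fads2, -0.18 for Scd2 and -0.02 for Fads1, with limma adjusted p-values of 0.421, 0.408, 0.403 and 0.938. In arrays without Y-linked expression they were -1.08, -0.66, -0.23 and -0.25, in the same order, and rest on 1 mutant array. With only replicate 3 left out they were -0.39, -0.38, -0.17 and -0.16, again in that order. With sex as a covariate over all 8 arrays the changes were -0.51 for Scd1, -0.36 for Fads2, -0.20 for Scd2 and -0.10 for Fads1, and none was called.

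All 4 desaturase genes lie on chromosome 19, which also carries Jak2. The other 605 measured genes of this chromosome had a median change of 0.05, and 35.5% lay below 0, against 37.4% of all genes. An unadjusted limma p under 0.05 and a lower value was found for 4.96% of them, against 5.23% of all genes. Neighbouring genes were not compared with one another, and the part of linkage to Jak2 in the desaturase values was not tested.

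The enzymes that build saturated fatty acids did not separate the genotypes. Acly, which supplies cytosolic acetyl-CoA from citrate, read 13.90, 13.86, 13.86 and 13.76 in Jak2V617F arrays, against 13.87, 14.02, 14.03 and 13.87 in wild type arrays (-0.10 ± 0.07, SE; limma adjusted p = 0.474). Acaca, acetyl-CoA carboxylase, read 12.25, 11.77, 11.77 and 11.95, against 11.93, 12.05, 11.82 and 11.97 in wild type arrays (-0.01 ± 0.12, SE). Fasn, fatty acid synthase, read 12.33, 12.13, 11.67 and 12.14, against 12.15, 12.25, 11.97 and 12.02 in wild type arrays (-0.03 ± 0.14, SE), with replicate 3 the lowest of all arrays.

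The elongases Elovl1 and Elovl5, which lengthen fatty acid chains, differed by 0.0015 and -0.03, with limma adjusted p-values of 0.992 and 0.85. Elovl6, the elongase of palmitate, had a change of 0.14 ± 0.07 (SE; limma adjusted p = 0.368) on its brightest probe set but -0.25 and -0.30 on the others, so its direction depended on the probe set, and for the -0.25 probe set all Jak2V617F arrays lay below all wild type arrays. Over the 10 fatty acid genes 8 changes lay below 0, with a median of -0.06, against 37.4% of all genes below 0. With dim genes left out, 5051 of 10968 genes lay below 0. Of the 10, 3 lay lower with an unadjusted limma p under 0.05, against 5.23% of all genes (7.87% with dim genes left out). That count was 0 of 10 in arrays with Y-linked expression alone and 1 of 10 with probe sets averaged.

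**Figure D4:**
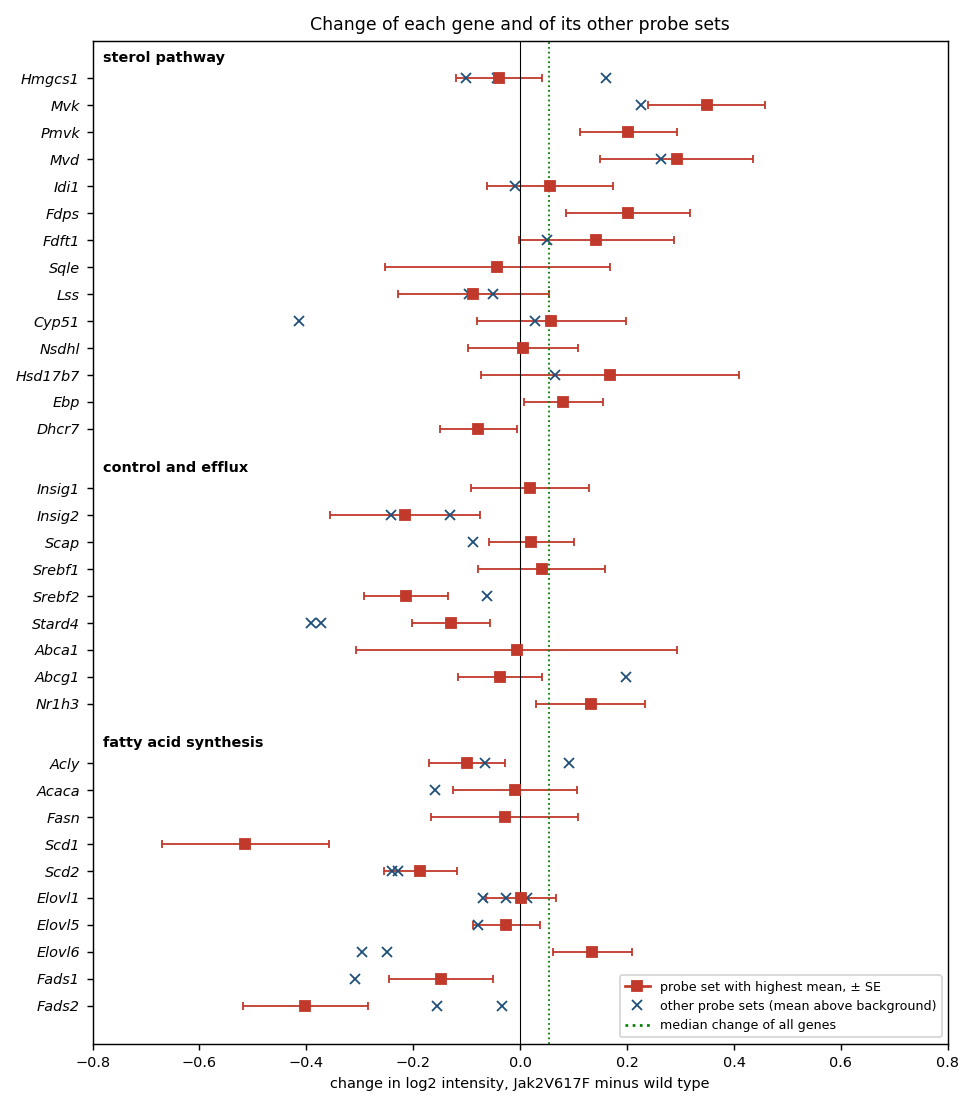
Change of each gene in log2 intensity, Jak2V617F minus wild type, for the probe set with the highest mean (red square, bar ± SE) and for other probe sets above background (blue cross). The dotted line is the median change of all genes. The squares of Scd1 (-0.51) and Fads2 (-0.40) lie farthest left and that of Mvk (0.35) farthest right, and the crosses of Elovl6 and Stard4 lie left of their squares.

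Of the 33 genes 24 had more than 1 probe set. Of 34 other probe sets above background, 24 had the same sign as the chosen one and 10 the opposite sign.

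**Figure D5:**
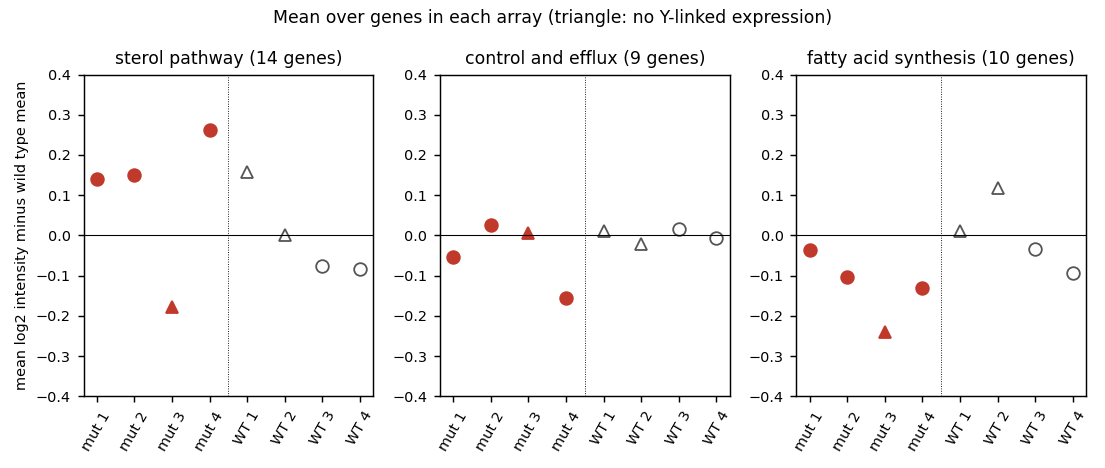
Mean log2 intensity over the genes of each role in each array, with the mean of the wild type arrays set to 0; red is Jak2V617F, open grey is wild type, and triangles are arrays without Y-linked expression. In the sterol pathway 3 Jak2V617F arrays lie between 0.14 and 0.26 and replicate 3 lies at -0.18, below every wild type array; in fatty acid synthesis replicate 3 lies at -0.24.

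A wider list of 34 genes of sterol uptake and storage and of lipid synthesis was measured for 28 members. None was called over all genes (limma), a threshold that 0.165% of all genes passed. With an unadjusted limma p under 0.05, 1 of 28 lay higher and 1 lower, against 11.9% and 5.23% of all genes. All Jak2V617F arrays lay above all wild type arrays for 2 of 28, against 6.82% of all genes. The median change was 0.04. Pparg, a nuclear receptor of lipid storage, lay higher by 0.34 ± 0.09 (SE; limma adjusted p = 0.138) but near background, with means of 6.67 in Jak2V617F and 6.32 in wild type arrays. Mid1ip1, an activator of acetyl-CoA carboxylase, differed by -0.17 ± 0.07 (SE; limma adjusted p = 0.257). Ch25h, cholesterol 25-hydroxylase, was near background in both groups, and Acss2, which makes acetyl-CoA from acetate, differed by -0.19 ± 0.11 (SE; limma adjusted p = 0.378). Other Acss2 probe sets differed by -0.28 and 0.42, the last with all Jak2V617F arrays above all wild type arrays, so the direction depended on the probe set.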

How the data were processed

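Total RNA of sorted LSK cells was amplified linearly and put on Affymetrix mouse arrays, per the labels' protocols. The authors deposited 1 table of log2 intensity. RMA, affy and R 2.11.0 appear in the submitters' processing notes, and the values themselves show a log2 scale. RMA normalises quantiles, so a shift of most transcripts would not be seen. Scanner files and scan dates were not used here. Of 45101 probe sets, 64 controls were left out and 34945 carried a single symbol. Where a gene had several, the brightest on average over the 8 arrays stood for it, giving 18193 genes.

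Genotypes were compared with limma 3.58.1 (lmFit, eBayes, two-sided, no covariate) in R 4.3.3, with p-values adjusted by Benjamini-Hochberg across every gene and called at 0.05. The labels number 4 samples of each genotype without saying that each is a separate mouse, so p-values measure the spread between these samples, which may be partly technical. Protein sequences were not analysed here. The number of arrays limits the precision. The genes, marker lists and the rule for genes named with values in every array (separated groups, an unadjusted p under 0.05, or a fixed set of regulators and key enzymes) were chosen with earlier results of these data known. The values of Pmvk, Mvd and Hsd17b7 in every array were added after they were seen. Scripts were tested on simulated data. Alternatives were a replicate block, median centring, filters, probe set choices, priors, array weights, sex, and each array left out.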

Additional observations from a re-analysis of the deposited data

Results flagged for a closer look

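Within a group of 4 arrays, 4 values stood far from the others, with a gap to the nearest array that was a larger share of the group's range than Dixon's critical value allows. They came from 72 groups tested (33 genes and 3 role means in each genotype), and chance gives about 1 in 20. Jak2V617F replicate 3 was low for Sqle, at 10.20 against 10.91 for the nearest mutant array (gap 0.869 of the range), and for Hsd17b7, at 9.07 against 9.95 (0.846). Wild type replicate 1 was high for Hmgcs1, at 14.22 against 14.03 (0.87), and for Lss, at 9.78 against 9.35 (0.83).

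The mean of the 14 sterol enzymes differed in direction between arrays with and without Y-linked expression. Jak2V617F minus wild type was 0.26 with it, where all 3 mutant arrays lay above both wild type arrays, and -0.26 without it, where the single mutant array lay below both. The difference between these means was not tested as a whole, and the interaction for each gene is given above.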

How the results depend on the processing

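None of the 33 genes was called under any of 17 alternative fits or at an adjusted threshold of 0.1 (limma). In the fit as reported 5 had an unadjusted p under 0.05. Of 17 alternatives, Mvk kept such a p in 17, Scd1 and Fads2 in 15 each, Srebf2 in 12 and Scd2 in 11. Srebf2, Scd1, Scd2 and Fads2 lost it with probe sets averaged (unadjusted limma p from 0.0656 to 0.16) and in arrays with Y-linked expression alone (0.129 to 0.226). With averaging, Stard4 and Fads1 lay lower with such a p instead. Mvk, Srebf2, Scd1, Scd2 and Fads2 kept their direction in all 17 fits. Mvk ranged from 0.28 to 0.44 (limma adjusted p from 0.184 to 0.383), Srebf2 from -0.27 to -0.14 (0.153 to 0.51), Scd1 from -0.62 to -0.20 (0.137 to 0.442), Scd2 from -0.22 to -0.16 (0.127 to 0.431) and Fads2 from -0.50 to -0.19 (0.109 to 0.408). Over all genes, 30 calls became 199 at a threshold of 0.1, 60 with sex in the model, 75 with a robust prior that follows the mean level and 49 when a gene's probe sets were averaged, and leaving out an array gave 13 to 40. Calls were 19 higher and 11 lower, and 21 and 19 with arrays centred on their median. With the replicate number as a block 8 genes were called; same-numbered arrays deviated with correlations from -0.221 to 0.103 and 2 of 8 arrays correlated best with their own number, so the numbers do not pair the samples. In arrays with Y-linked expression alone the median change was 0.0924 over the 33 genes, 0.256 over sterol enzymes and -0.0898 over control and efflux genes, against 0.0597 over all genes. Leaving out an array gave medians from -0.03 to 0.05 over the 33 genes, from 0.03 to 0.19 over sterol enzymes, from -0.07 to 0.02 over control and efflux genes and from -0.12 to -0.05 over fatty acid genes. The causes of these differences were not tested.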
